A study of Mus musculus with 4 samples.

Results

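Trem2, Gpnmb, Cd9, Cd63, Lpl, Atp6v0d2, Ms4a7 and Tyrobp are genes commonly used to recognise lipid-associated macrophages, and they were followed here across single cells of mouse liver. The 8 genes were taken by symbol from the 31053 genes of the count tables, and each symbol was present in all 4 libraries. The libraries came from C57BL/6 mice and are named HCC (cells of the hepatocellular carcinoma region), high-AFP, low-AFP and control, where AFP is the tumour marker alpha-fetoprotein. The animals were 15 months old by the library titles but 17 months by the age labels. The control title names the control diet and the low-AFP title the CD-HFD diet. The high-AFP library carries the control diet in its title and CD-HFD in its file name, so libraries are named here by the AFP label. Each group was 1 library, so no test was made, each difference describes these 4 libraries, and intervals (95%) cover counting error only. How many mice each library held is not given in the sources used here.

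Trem2 is a surface receptor for lipids and lipoproteins that signals through the adaptor Tyrobp. Macrophages that take up lipid in fatty tissue, fatty liver and tumours switch on both a receptor programme (Trem2, the transmembrane glycoprotein Gpnmb) and a lysosomal and lipid-handling programme (the tetraspanins Cd9 and Cd63, the triglyceride lipase Lpl, and Atp6v0d2, a subunit of the proton pump that acidifies lysosomes). Ms4a7, a four-span membrane protein of the MS4A family, is typical of macrophages that arise from monocytes, whereas Kupffer cells, the resident macrophages of liver sinusoids, carry Clec4f, Vsig4 and Timd4.

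Across 50 pairs of cell type and library, Trem2, Gpnmb and Ms4a7 had the most similar patterns among the 8 genes, with Pearson's r of 0.95 for each of the 3 pairings (pairs from 1 library share depth and free RNA, so this is a description). Their upstream sequences are shown for that reason. RefSeq promoter windows were found for 5 of the 8 genes (Trem2, Gpnmb, Cd9, Cd63, Ms4a7). The 250 bases before the start of Trem2 are chr17:48346151-48346400, plus strand, those of Gpnmb chr6:49036268-49036517, plus strand, and those of Ms4a7 chr19:11336147-11336396, minus strand, all in GRCm38.p6, written 5′ to 3′ with motif matches in capitals.
Trem2: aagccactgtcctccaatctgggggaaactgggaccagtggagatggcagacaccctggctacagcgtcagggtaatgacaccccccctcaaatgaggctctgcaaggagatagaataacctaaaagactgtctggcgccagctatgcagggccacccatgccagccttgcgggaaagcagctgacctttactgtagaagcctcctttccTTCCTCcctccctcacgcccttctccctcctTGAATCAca
Gpnmb: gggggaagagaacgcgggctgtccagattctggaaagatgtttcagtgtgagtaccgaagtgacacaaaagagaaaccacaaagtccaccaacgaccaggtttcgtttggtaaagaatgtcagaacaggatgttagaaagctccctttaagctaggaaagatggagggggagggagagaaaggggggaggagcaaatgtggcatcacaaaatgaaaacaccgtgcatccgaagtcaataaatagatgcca
Ms4a7: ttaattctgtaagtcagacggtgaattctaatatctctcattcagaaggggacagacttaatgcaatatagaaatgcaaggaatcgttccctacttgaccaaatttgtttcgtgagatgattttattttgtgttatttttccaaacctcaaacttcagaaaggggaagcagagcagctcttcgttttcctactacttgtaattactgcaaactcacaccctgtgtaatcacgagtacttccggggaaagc
The motifs searched on both strands were CACGTG and CATGTG (E-box letters to which MiT/TFE lysosomal factors bind), TGANTCA (AP-1), GAGGAA (the PU.1 core) and the DR1 repeat bound by PPAR and RXR. They do not overlap one another in the printed windows. In the Trem2 window TGAATCA, which matches TGANTCA with A at the open base N, lay 9 to 3 bases before the start. TTCCTC, the PU.1 core on the other strand, lay 40 to 35 bases before the start. The Gpnmb and Ms4a7 windows shown held no match. Elsewhere, Cd9 had CACATG at 38 to 33 bases, Cd63 had GAGGAA at 244 to 239 and TTCCTC at 59 to 54 bases, and a second Ms4a7 start had TGATTCA at 81 to 75 bases before it. Among all 32851 mouse windows of this length, 6.02% held CACGTG, 12.3% CATGTG, 6.75% TGANTCA, 23.3% GAGGAA and 0.0335% the DR1 repeat, so matches of the first 4 kinds were common.

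The libraries held 65326793 UMIs over 8929 barcodes in HCC, 97393862 over 11539 in high-AFP, 80505127 over 9257 in low-AFP and 71957655 over 11113 in control (a UMI is a molecular tag that counts 1 captured RNA molecule). After filters and doublet removal, 7491, 7902, 5129 and 6036 cells remained, and 97 barcodes occurred in more than 1 library. The protocol mixed purified parenchymal cells with sorted live non-parenchymal cells 1:1, which can set shares of cell types. Cells were clustered without the 8 genes and named from marker lists as "X-like". Macrophage-like cells numbered 350 in HCC, 990 in high-AFP, 588 in low-AFP and 504 in control, of which 12, 576, 323 and 424 lay in Kupffer-like clusters. The libraries largely filled different clusters: of the 338 HCC macrophage-like cells outside the Kupffer-like clusters, 220 lay in cluster p11 (led by C1qb, Wfdc17 and C1qa, shallow cells) and 87 in cluster p18 (led by C1qb and Vcam1), whereas 302 of 414 in high-AFP, 171 of 265 in low-AFP and 61 of 80 in control lay in cluster p2 (led by Pf4, Cx3cr1 and C1qb). Library and cluster therefore cannot be told apart for HCC macrophages.

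Trem2, Gpnmb, Ms4a7, Lpl and Atp6v0d2 were at their highest in macrophage-like cells among types with at least 50 cells, while Cd9, Cd63 and Tyrobp were also high in other cells. Levels are CPM, the UMIs of a gene per 1e+06 nuclear-encoded UMIs over all cells of a type in a library, and a gene was counted as higher when it was at least 2-fold up after 10 CPM was added to both values, with at least 10 CPM in either. Against all other named cells, macrophage-like cells were higher for 7 of the 8 genes in HCC (7.99% of all genes measured there were called higher), 8 in high-AFP (14.4%), 8 in low-AFP (14.8%) and 6 in control (15.8%). The genes below the threshold were Tyrobp in HCC (log2 fold 0.76) and Cd9 (0.82) and Atp6v0d2 (0.90) in control. The other named cells were pooled, and hepatocyte-like cells held 3232844 of their 40725554 nuclear-encoded UMIs in HCC. In high-AFP it was 44899732 of 60320992, in low-AFP 36366156 of 49950483 and in control 28067470 of 41358873. The counts therefore cannot be compared between libraries.

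Trem2, the lipid receptor, was at 485, 668, 604 and 404 CPM in macrophage-like cells outside the Kupffer-like clusters of HCC, high-AFP, low-AFP and control. It was at 297, 286 and 128 CPM in Kupffer-like cells of high-AFP, low-AFP and control, and at 179, 191, 194 and 147 CPM in classical monocyte-like cells of HCC, high-AFP, low-AFP and control. In T-like cells, which should lack it, Trem2 was at 1.87, 6.39, 4.72 and 0 CPM. In high-AFP and low-AFP the intervals of the 3 types did not overlap, whereas in control the Kupffer-like interval (111 to 148) overlapped the classical monocyte-like interval (118 to 183). Non-classical monocyte-like cells of HCC, the 1 library with at least 50 of them, held 76.7 CPM of Trem2 and 6.29 CPM of Gpnmb.

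**Figure D1:**
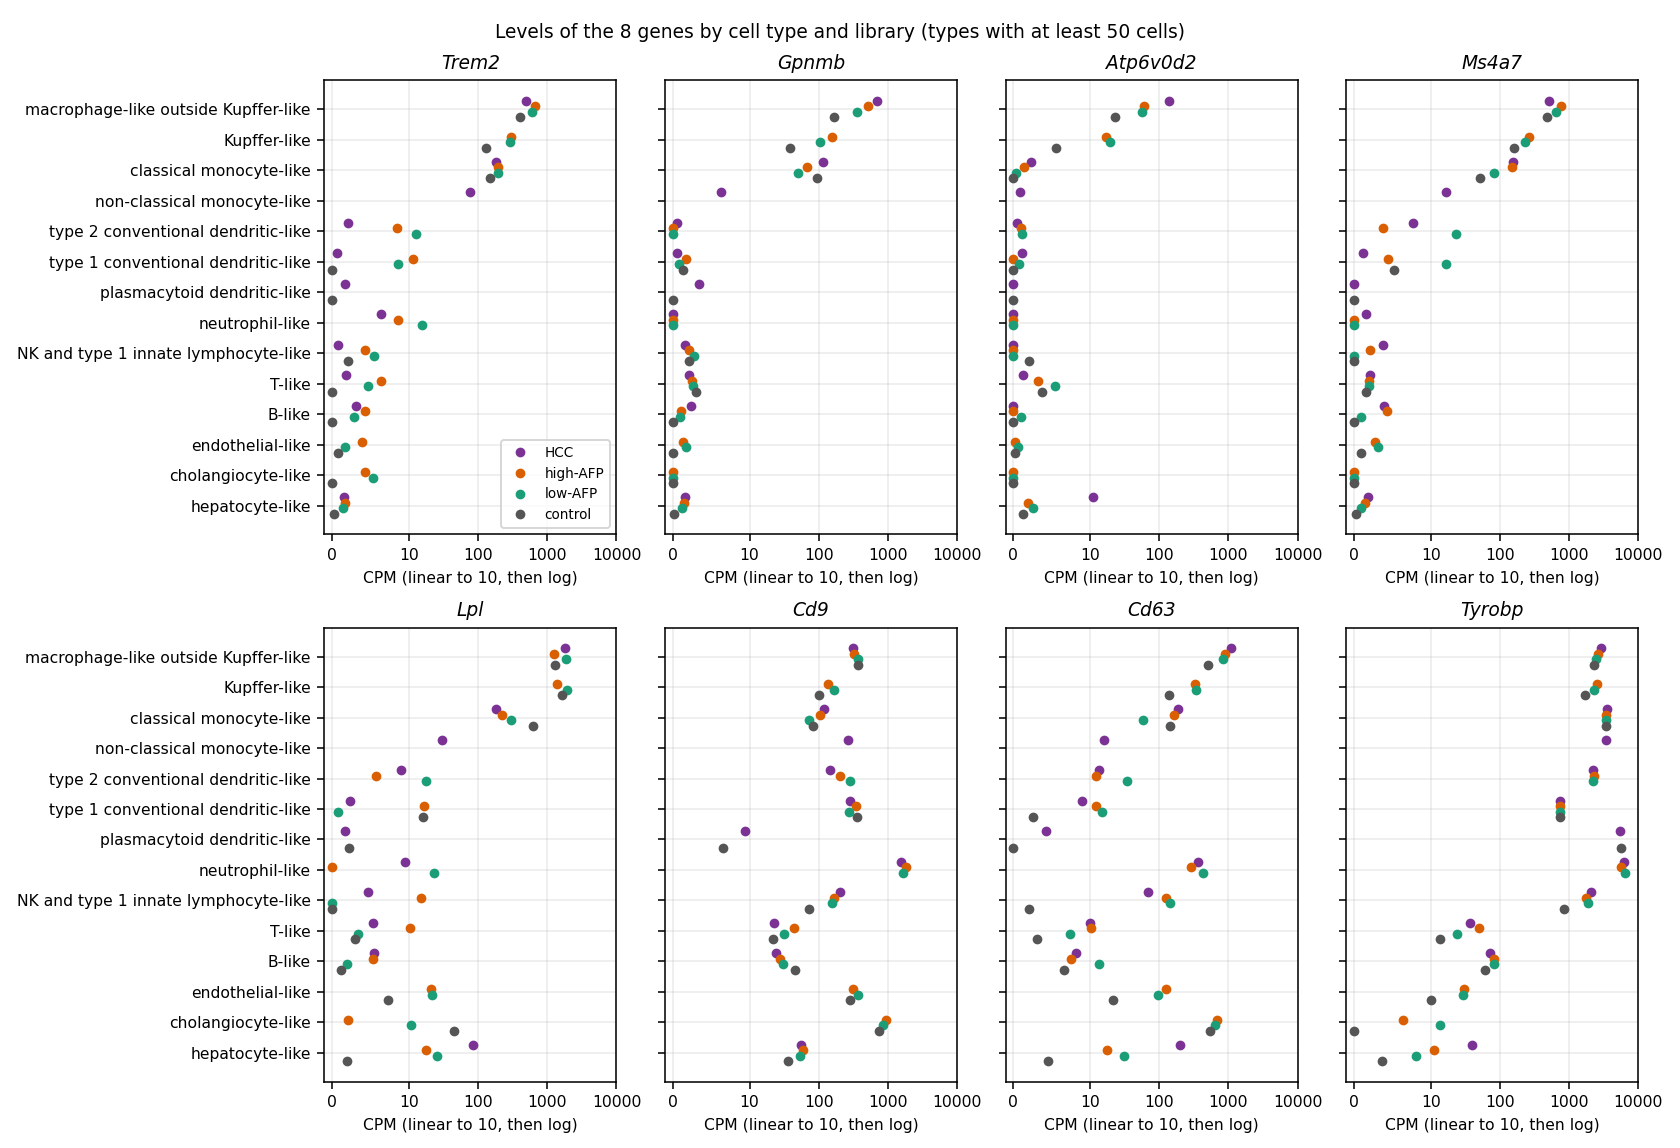
Level of each of the 8 genes (horizontal axis, CPM, linear to 10 and logarithmic above) in 14 cell types (vertical axis), with 1 point per library for types with at least 50 cells; HCC, high-AFP, low-AFP and control run from top to bottom within a type. Trem2, Gpnmb, Ms4a7 and Lpl are above 10 CPM in macrophage-like and classical monocyte-like rows and lower in most other rows, whereas Cd9, Cd63 and Tyrobp spread over several types.

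Cd9 reached its highest level outside macrophages. It was at 1540, 1838, 1632 and 1365 CPM in neutrophil-like cells of HCC, high-AFP, low-AFP and control, against 313, 319, 369 and 364 CPM in macrophage-like cells outside the Kupffer-like clusters (228, 59, 57 and 44 neutrophil-like cells). Cholangiocyte-like cells, from the bile duct lining, held 717, 951, 853 and 734 CPM of Cd9 (43, 57, 69 and 55 cells). Cd63, which sits in late endosomes and lysosomes, was at 774, 681, 643 and 543 CPM in cholangiocyte-like cells. In mature dendritic-like cells Cd63 was at 900.5 CPM in HCC (86 cells), with 1036, 1275 and 494 CPM in high-AFP, low-AFP and control (49, 25 and 19 cells). Tyrobp, the adaptor shared by many activating receptors, was at 6136, 5626, 6460 and 5716 CPM in neutrophil-like cells and at 5410, 5523, 5205 and 5584 CPM in plasmacytoid dendritic-like cells (136, 45, 40 and 69 cells). These Tyrobp levels were above the 2855, 2595, 2415 and 2295 CPM of macrophage-like cells outside the Kupffer-like clusters. Cd9, Cd63 and Tyrobp were thus not limited to macrophages in these libraries.

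The lipase gene Lpl stood at 278 CPM in the 91 mesenchymal-like cells of control, and it was also detected in hepatocyte-like cells at 85.7 CPM in HCC, 17.5 in high-AFP, 25.4 in low-AFP and 1.92 in control. Cd63 was likewise highest in HCC and lowest in control there, with 196, 17.4, 31.0 and 4.49 CPM in hepatocyte-like cells, and Atp6v0d2 was at 10.8, 1.89, 2.61 and 1.21 CPM. HCC hepatocyte-like cells numbered 510 with a median of 2271.5 UMIs, against 3535, 2119 and 2659 cells with medians of 12149, 16269 and 12662 UMIs. Tyrobp, a gene of blood cells, was at 39.9, 11.02, 8.06 and 3.598 CPM in these hepatocyte-like cells, and its part in the Lpl and Cd63 values was not tested.

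Within the macrophages, Trem2, Gpnmb, Cd9, Cd63, Atp6v0d2 and Ms4a7 were higher outside the Kupffer-like clusters than in them, whereas Lpl and Tyrobp were shared. This held for 6 of the 8 genes in high-AFP (1.1% of measured genes called higher), 6 in low-AFP (1.61%) and 6 in control (2.03%). The log2 folds of Gpnmb were 1.66, 1.73 and 1.87 in high-AFP, low-AFP and control, those of Ms4a7 1.51, 1.42 and 1.57, and those of Cd63 1.43, 1.29 and 1.80. Lpl was at 1270, 1875 and 1302 CPM outside the Kupffer-like clusters, against 1397, 1956 and 1647 CPM in Kupffer-like cells, so it was level or slightly lower (log2 folds -0.14, -0.06 and -0.34). Tyrobp gave log2 folds of 0.04, 0.05 and 0.44. In HCC the 12 Kupffer-like cells were too few to compare.

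Without the macrophage-like cluster p10, led by Mmp12 and Mmp13, the count was 3 in high-AFP and 2 in low-AFP, and Atp6v0d2 turned to log2 folds of -0.16, -0.57 and -0.13 in high-AFP, low-AFP and control. The split also depended on where the Kupffer-like border was drawn. With a clustering resolution of 0.5, or at least 1000 UMIs per cell, 210 or 130 rather than 576 high-AFP cells were Kupffer-like, and the count of higher genes was then 0 or 1 in high-AFP and 0 or 1 in low-AFP. Shares over all genes were not computed for these settings or without p10. Macrophage-like cells were also split without the Kupffer-like border, by whether a cell thinned to 1000 UMIs kept a UMI of Clec4f. In cells without Clec4f, 4 genes were higher in HCC (1.4% of measured genes), 4 in high-AFP (0.891%), 1 in low-AFP (1.23%) and 5 in control (2.09%). In high-AFP 371 of 905 thinned cells kept Clec4f, whereas 499 lay in Kupffer-like clusters. The cells without Clec4f therefore included Kupffer-like cells there. By this split Trem2 was at 514, 610, 561 and 379 CPM in cells without Clec4f of HCC, high-AFP, low-AFP and control, against 313, 284, 317 and 116 CPM in cells with it. Ms4a7 was at 580, 677, 597 and 434 CPM without Clec4f, against 248, 251, 260 and 156 CPM with it. Trem2, Gpnmb, Cd9, Cd63, Atp6v0d2 and Ms4a7 had positive log2 folds in all 4 libraries by the Clec4f split, from 0.28 (Atp6v0d2 in low-AFP) to 3.23 (Gpnmb in HCC), and Lpl had negative ones, from -0.71 to -0.07.

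The highest levels of Gpnmb and Atp6v0d2 lay in 1 small cluster of macrophage-like cells, p10, whose leading genes were the elastase gene Mmp12, the collagenase gene Mmp13 and the interleukin-1 antagonist Il1rn. Of the 10 leading genes of p10, 0 were markers of the macrophage lists, against 4 in p2, 4 in p18 and 5 in p11. The name of p10 is therefore less certain. This cluster held 26 cells in HCC, 104 in high-AFP, 90 in low-AFP and 19 in control. These were 7.43% (4.91 to 10.7), 10.5% (8.66 to 12.6), 15.3% (12.5 to 18.5) and 3.77% (2.28 to 5.82) of the macrophage-like cells. Gpnmb in p10 was at 2844 CPM (2693 to 3001) in HCC, 1233 (1162 to 1307) in high-AFP, 661 (608 to 717) in low-AFP and 390 (292 to 510) in control. The 4 intervals of Gpnmb did not overlap. Atp6v0d2 in p10 was at 588 CPM (520 to 661) in HCC, 203 (175 to 234) in high-AFP, 149 (124 to 176) in low-AFP and 88.3 (45.6 to 154) in control. Neighbouring intervals of Atp6v0d2 overlapped between high-AFP and low-AFP and between low-AFP and control.

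Trem2 in p10 was at 1002, 678, 610 and 324 CPM in HCC, high-AFP, low-AFP and control, and Cd63 at 2964, 1512, 1336 and 1022 CPM. Lpl had no such order, at 3416, 2767, 3670 and 3663 CPM, and Cd9 was at 779, 574, 608 and 684 CPM. The p10 cells of HCC were deeper than the rest, with a median of 21685.5 UMIs against 8459 in high-AFP, 9326 in low-AFP and 7556 in control, and the part of depth in these levels was not tested. Outside p10, the cluster p2 held 276, 211 and 104 CPM of Gpnmb in high-AFP, low-AFP and control, and 14.1, 9.84 and 4.15 CPM of Atp6v0d2, the last from 2 UMIs. In the Kupffer-like cluster p7 of high-AFP, Gpnmb stood at 848 CPM, but 20 of its 31 UMIs came from 1 cell.

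**Figure D2:**
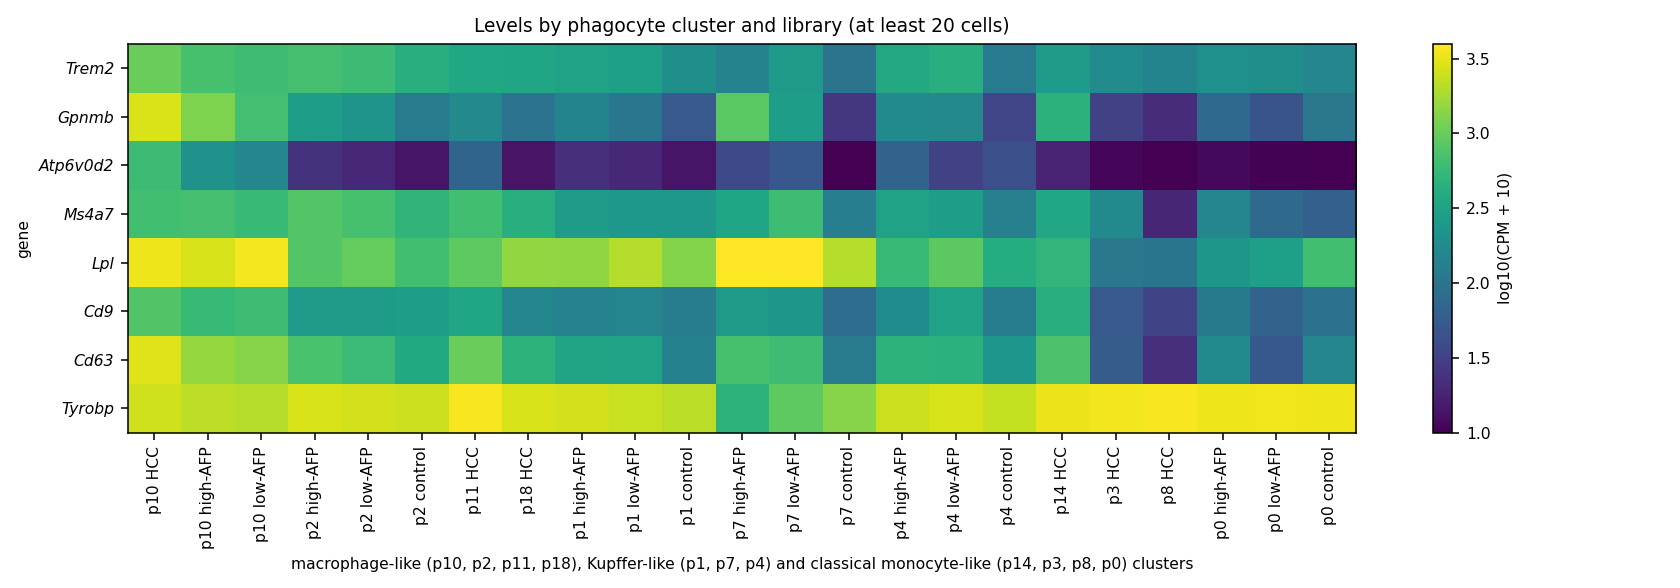
Level of each gene (rows) in phagocyte clusters split by library (columns, at least 20 cells), coloured by log10(CPM + 10). The p10 columns are brightest for Gpnmb and Atp6v0d2 in HCC, where they reach 2844 and 588 CPM, and Tyrobp is bright in nearly every column.

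As a share of the transcripts of macrophage-like cells, p10 held 85.4% of the Gpnmb UMIs in HCC, 43.9% in high-AFP, 48.7% in low-AFP and 33.3% in control. It held 83.8%, 62.5%, 67.2% and 54.5% of the Atp6v0d2 UMIs. Its share of all UMIs of these cells was 19.6%, 11.4%, 17.5% and 6.55%. Ms4a7 and Tyrobp were nearer to that share than Gpnmb and Atp6v0d2, with 25.7%, 15.4%, 21.9% and 11.5% for Ms4a7 and 17.8%, 9.85%, 14.9% and 5.63% for Tyrobp. For Trem2 the shares were 43.3%, 16.4%, 23.7% and 10.1%.

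**Figure D3:**
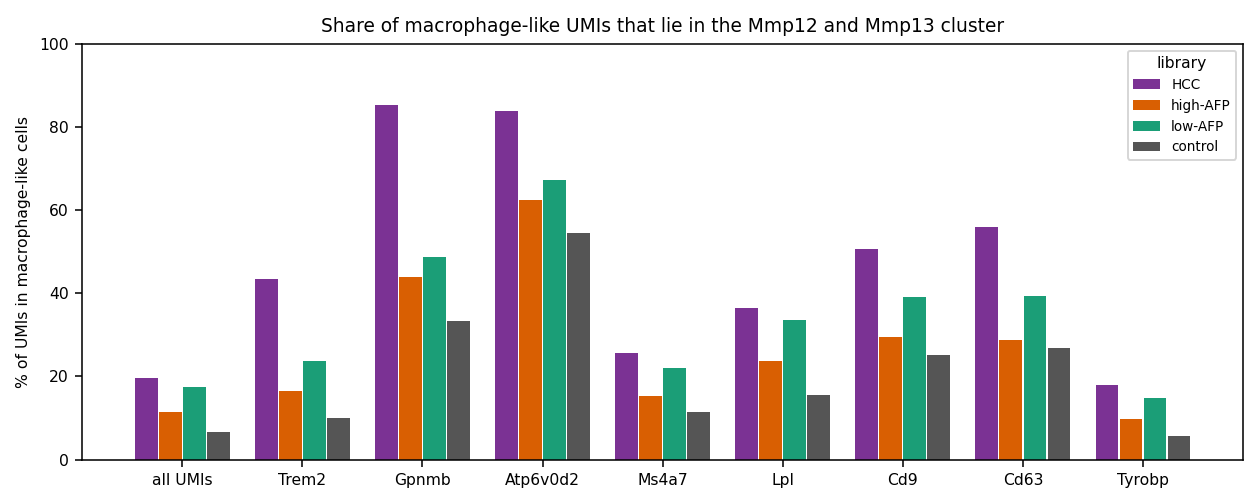
Percent of the UMIs of macrophage-like cells that lie in cluster p10, for all genes together and for each of the 8 genes, 1 bar per library in the order HCC, high-AFP, low-AFP and control. For Gpnmb the bars reach 85.4%, 43.9%, 48.7% and 33.3%, against 19.6%, 11.4%, 17.5% and 6.55% for all UMIs.

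Between libraries, Trem2, Gpnmb, Cd63 and Atp6v0d2 were the genes that stood higher in macrophage-like cells of HCC, high-AFP and low-AFP than of control. The count was 4 of 8 in HCC against control (0.863% of measured genes called higher), 4 in high-AFP against control (0.27%) and 4 in low-AFP against control (0.223%); these comparisons share the control library. The median over all genes was -0.19 on the log2 scale in HCC against control, where Trem2 stood at 1.07 and Gpnmb at 2.94. Between HCC and high-AFP 2 of 8 were higher, Gpnmb (log2 fold 1.00, just past the threshold) and Atp6v0d2 (1.65) (0.374%), and between high-AFP and low-AFP 0 of 8 (0.0993%). Without cluster p10 the HCC against high-AFP count was 0, with Gpnmb at a log2 fold of -0.73, and it was 1 under 6 other settings. The HCC against control count was 2 without p10 and 7 by mean over cells. No share over all genes was computed for these settings. Kupffer-like cells, in which these genes were lower, were 12 of 350 macrophage-like cells in HCC, 576 of 990 in high-AFP, 323 of 588 in low-AFP and 424 of 504 in control, so both kinds of macrophage were also compared alone. Thinned to 1000 UMIs, 65 of 266, 371 of 905, 244 of 540 and 285 of 417 macrophage-like cells kept a Clec4f UMI in HCC, high-AFP, low-AFP and control. HCC cells outside the Kupffer-like clusters also held more of the listed Kupffer genes than those of the other libraries (sums below). The cells outside those clusters were therefore not alike across libraries.

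The Kupffer-like cells lay in different clusters by library: cluster p1 held 356 of 576 in high-AFP, 187 of 323 in low-AFP and 62 of 424 in control, and cluster p7 held 30, 29 and 223. In Kupffer-like cells, Trem2, Gpnmb and Cd63 were higher in high-AFP than control (3 of 8 genes, 0.397% of measured genes) and in low-AFP than control (3 of 8, 0.384%). Of the 8 genes, 0 were at least 2-fold higher in high-AFP than low-AFP (0.0735%). Gpnmb was at 155 CPM (143 to 167) in high-AFP, 103 (90.4 to 116) in low-AFP and 38.5 (29.05 to 49.9) in control. Cd63 was at 330, 335 and 139 CPM, and its log2 folds against control were 1.19 in high-AFP and 1.21 in low-AFP. Trem2 had log2 folds of 1.15 and 1.10. Within cluster p1 alone, Gpnmb (1.49 and 1.00) and Cd63 (1.25 and 1.18) were still called in high-AFP and low-AFP against control, but Trem2 was not, at log2 folds of 0.66 and 0.57 (304 and 284 CPM, against 189 CPM in control). The Gpnmb call in low-AFP was just past the threshold, and the control value of Gpnmb in p1 rested on 21 UMIs in 62 cells. Over all Kupffer-like cells, Atp6v0d2 was at 16.9, 19.5 and 5.49 CPM, the control value resting on 8 UMIs. With at least 1000 UMIs per cell the count against control was 6 in high-AFP and 5 in low-AFP, and with the 8 genes kept in the clustering it was 1 in low-AFP. Shares over all genes were not computed for these settings or for p1 alone.

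In macrophage-like cells outside the Kupffer-like clusters, the counts against control were 3 of 8 in HCC (Gpnmb, Cd63 and Atp6v0d2, 1.65% of measured genes), 2 in high-AFP (Gpnmb and Atp6v0d2, 0.526%) and 2 in low-AFP (Gpnmb and Atp6v0d2, 0.269%). Between HCC and high-AFP Atp6v0d2 alone was higher (1 of 8, 0.839%), and between high-AFP and low-AFP 0 of 8 (0.139%). Gpnmb was at 690.5 CPM (656 to 726) in HCC, 508 (486 to 532) in high-AFP, 363 (340 to 387) in low-AFP and 167 (136 to 202) in control. Atp6v0d2 was at 137.5 CPM (122 to 154) in HCC, 60.0 (52.4 to 68.3) in high-AFP, 56.6 (47.9 to 66.5) in low-AFP and 22.6 (12.4 to 38.0) in control, the last from 14 UMIs. Trem2 and Ms4a7 were lower in HCC than in high-AFP, by log2 folds of -0.45 and -0.57. Without cluster p10, Gpnmb was at 105 CPM (90.7 to 122) in HCC, 276 (257 to 296) in high-AFP, 211 (189.8 to 234) in low-AFP and 104 (76.9 to 137) in control, so that HCC lay below high-AFP (log2 fold -1.31) and overlapped control. The counts against control were then 1 in HCC, where the gene was Lpl and none of the 3 above, 1 in high-AFP (Gpnmb) and 0 in low-AFP, and 0 in HCC against high-AFP. The share over all genes was not computed without p10.

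**Figure D4:**
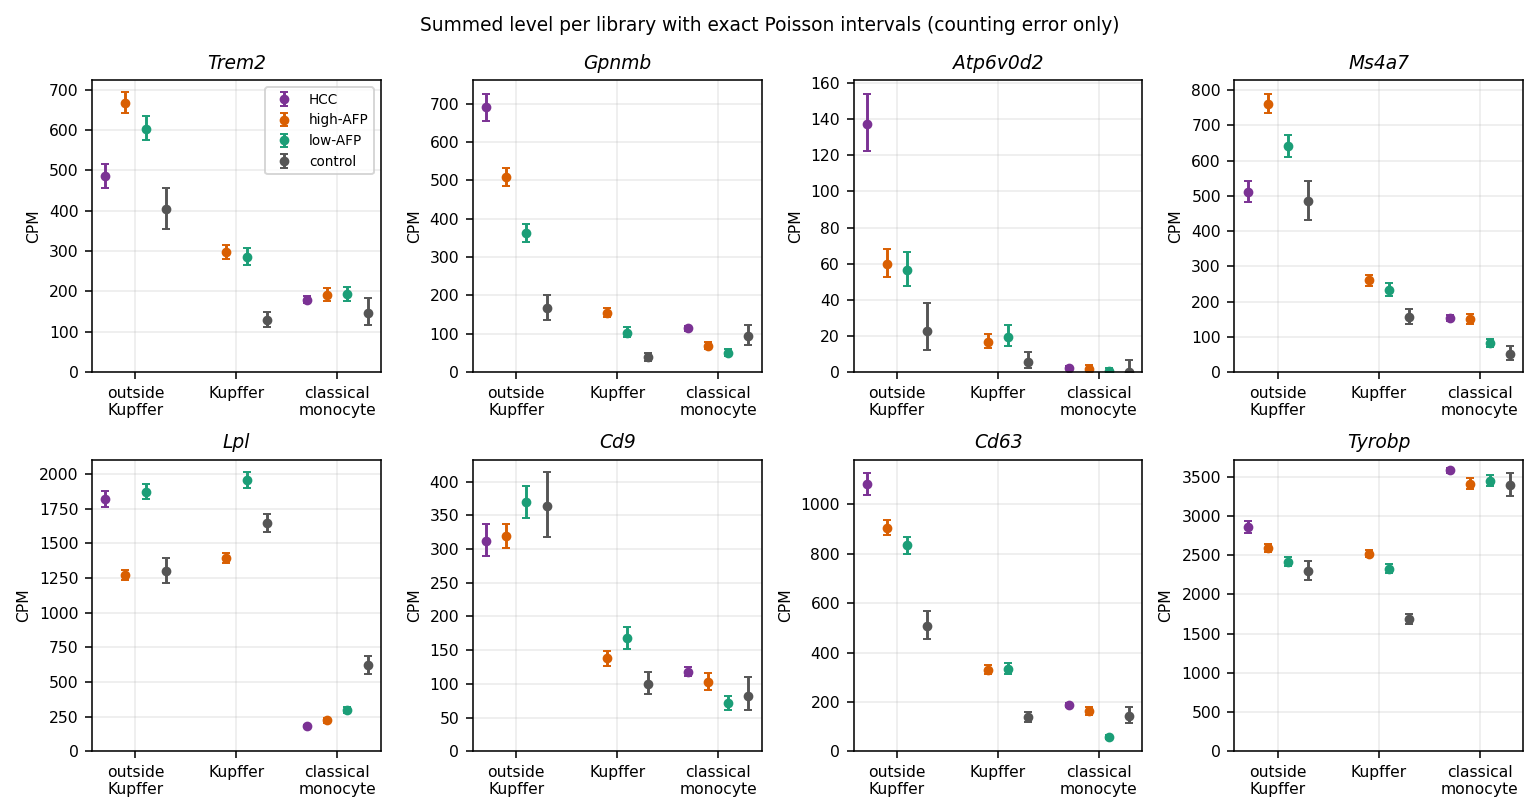
Level of each gene (CPM, linear axis from 0) in macrophage-like cells outside the Kupffer-like clusters, Kupffer-like cells and classical monocyte-like cells, with points for HCC, high-AFP, low-AFP and control from left to right and bars for exact Poisson intervals; Kupffer-like cells of HCC (12 cells) are left out. Gpnmb outside the Kupffer-like clusters runs 690.5, 508, 363 and 167 CPM, and Lpl in classical monocyte-like cells runs 184, 225, 296 and 620 CPM.

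Hepatocyte transcripts and Kupffer genes also differed in level between the same libraries. The 10 listed hepatocyte transcripts were all detected in macrophage-like cells outside the Kupffer-like clusters and summed to 1358, 3830, 3667 and 6389 CPM in HCC, high-AFP, low-AFP and control. In Kupffer-like cells they summed to 4529, 4880 and 10070 CPM in high-AFP, low-AFP and control. The 14 listed Kupffer genes summed to 11566 CPM in HCC cells outside the Kupffer-like clusters, with Marco at 0, against 5769, 5736 and 5961 CPM in high-AFP, low-AFP (Marco at 0) and control. In HCC classical monocyte-like and T-like cells they summed to 429 and 52.7 CPM. The part of either list in the member levels was not tested.

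In single cells thinned to 1000 UMIs, a Trem2 UMI was found in 29.0% (23.5 to 35.0), 38.9% (34.1 to 43.8), 35.0% (29.2 to 41.1) and 29.1% (19.4 to 40.4) of macrophage-like cells outside the Kupffer-like clusters in HCC, high-AFP, low-AFP and control. Thinning left out 83, 8, 2 and 1 shallower cells. In T-like cells the shares were 0.209%, 1.11%, 0.560% and 0 of 331 cells, which allows up to 0.906% (3 cells of the total). Median depths of the thinned cells were 4137, 9227.5, 10387 and 7933 UMIs for the macrophages and 4222, 3411, 4084 and 4023 UMIs for the T-like cells. Unthinned, the Trem2 shares were 49.4%, 86.7%, 81.5% and 78.8% in these macrophages and 0.741%, 1.97%, 1.37% and 0% in T-like cells. In Kupffer-like cells the thinned Trem2 share was 21.0% (17.5 to 24.9) in high-AFP and 17.3% (13.1 to 22.3) in low-AFP, against 7.69% (5.09 to 11.1) in control. The unthinned Kupffer-like shares were 53.3%, 50.5% and 20.8%.

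Macrophages also carried more of the 8 genes at once. At 1000 UMIs, at least 4 of the 8 were seen in 30.6% (24.99 to 36.6), 40.4% (35.6 to 45.3), 35.7% (29.9 to 41.9) and 29.1% (19.4 to 40.4) of macrophage-like cells outside the Kupffer-like clusters. In Kupffer-like cells it was 16.4% (13.3 to 19.98), 20.2% (15.6 to 25.4) and 3.55% (1.85 to 6.12) in high-AFP, low-AFP and control. Classical monocyte-like cells had 5.09%, 4.57%, 1.80% and 6.67% in the 4 libraries, and T-like cells had 0 of 2392, 452, 357 and 331 cells. Between macrophage kinds the intervals of high-AFP did not overlap, and neither did those of low-AFP or control. In p10 the share was 73.1%, 61.2% and 56.7% in HCC, high-AFP and low-AFP, from 26, 103 and 90 cells.

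**Figure D5:**
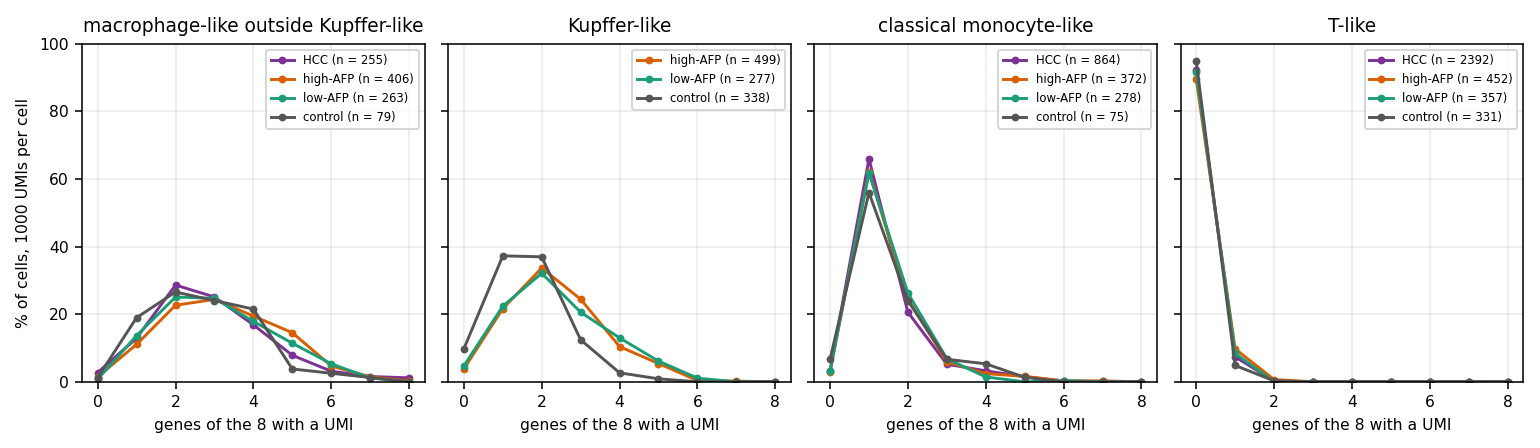
Percent of cells (vertical axis) by how many of the 8 genes had a UMI after thinning to 1000 UMIs (horizontal axis), for 4 cell types with 1 line per library and the number of cells in the legend. Macrophage-like cells outside the Kupffer-like clusters peak at 2 or 3 genes, classical monocyte-like cells at 1 and T-like cells at 0.

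Classical monocyte-like cells held less of most of these genes. Compared with classical monocyte-like cells, macrophage-like cells outside the Kupffer-like clusters were higher for 7 of the 8 genes in HCC (7.54% of measured genes), 7 in high-AFP (4.85%), 7 in low-AFP (5.86%) and 6 in control (8.53%). Tyrobp was the gene not higher in any of them, with log2 folds of -0.32, -0.39, -0.51 and -0.56. In control Gpnmb also missed the threshold (log2 fold 0.78). Atp6v0d2 had 22, 4, 1 and 0 UMIs in classical monocyte-like cells, so its calls rest on the 10 CPM that was added. Without cluster p10 the HCC count was 4, and Gpnmb there had a log2 fold of -0.10. The share over all genes was not computed for that setting.

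The HCC cells named classical monocyte-like differed among themselves. In cluster p14, led by Clec4e, Ptafr and Saa3 and made up of 161 HCC cells with 9 from low-AFP and 1 each from high-AFP and control, Gpnmb was at 461 CPM (432 to 491), Cd63 at 728, Cd9 at 419 and Ms4a7 at 354 CPM. In the other HCC classical monocyte-like clusters, p3 (418 cells) and p8 (279 cells), Gpnmb was at 21.6 and 11.4 CPM and Cd63 at 48.1 and 12.6 CPM. Of the 10 leading genes of p14, 0 were monocyte markers of the lists, against 4 in p3 and 5 in p8. The name of p14 is therefore less certain, as is that of p10. Trem2 varied less, at 254 CPM in p14, 171 in p3 and 138 in p8. Atp6v0d2 stayed at 8.17 CPM in p14, against 588 CPM in p10 of the same library.

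Monocytes too lay in different clusters: HCC classical monocyte-like cells were mostly in p3, p8 and p14, with 7 in p0, whereas p0 held 370 of 372 in high-AFP, 268 of 280 in low-AFP and 75 of 76 in control. Non-classical cells were 332 of 1197 monocyte-like cells in HCC, 37 of 409 in high-AFP, 17 of 297 in low-AFP and 10 of 86 in control. Between libraries, monocyte-like cells (classical and non-classical together) had higher Ms4a7 in HCC than control (1 of 8 genes, 0.861% of measured genes) and in high-AFP than control (1 of 8, 0.869%). Cd63 was higher in high-AFP than low-AFP (1 of 8, 0.274%), with 0 of 8 higher in HCC than high-AFP (0.785%) and 0 of 8 in low-AFP than control (0.436%). Lpl ran the other way. It was the 1 gene at least 2-fold lower in HCC than control (3.75% of measured genes called lower) and in high-AFP than control (0.996%), with log2 folds of -1.84 and -1.36. Without cluster p14, Gpnmb (-1.99), Cd63 (-2.05) and Lpl (-2.75) were all at least 2-fold lower in HCC than control. In high-AFP against control it was then Lpl alone (-1.40). The share over all genes was not computed without p14. In low-AFP Lpl had -0.98, and Cd63 was the 1 gene called lower than in control (0.679%), with a log2 fold of -1.35. Without cluster p14, Gpnmb (-1.12), Cd63 (-1.78) and Lpl (-1.08) were all at least 2-fold lower in low-AFP than control. In classical monocyte-like cells alone Lpl was at 184, 225, 296 and 620 CPM in HCC, high-AFP, low-AFP and control, with no overlap of intervals, and Ms4a7 at 154, 150, 80.9 and 50.9 CPM, where the HCC and high-AFP intervals overlapped, as did those of low-AFP and control. The control value came from 76 cells. The Ms4a7 count against control in HCC was 0 with a mitochondrial limit of 15%, at least 1000 UMIs per cell or another resolution, and without cluster p14, which held 737 of the 1474 Ms4a7 UMIs of HCC classical monocyte-like cells. Without it Ms4a7 was at 78.4 CPM in HCC and 48.2 CPM in control. The Cd63 count in high-AFP against low-AFP was 0 with the 15% limit, 1000 UMIs or resolution 0.5, 3 without doublet removal and 2 without p14.

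The genes with the most similar patterns over the 50 pairs, among 8407 genes searched, were Gdf3 (r 0.96) for Trem2, C3ar1 (0.94) for Lpl, Rab20 (0.87) for Cd63 and Fcer1g (0.94) for Tyrobp. Atp6v0d2 was most like Mmp12 (0.88) and Mmp13 (0.86), which also led cluster p10. Cd9 had no gene above 0.76 (Prr5l), and its r with Gpnmb was 0.08.

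Other genes of the same programmes were read from fixed lists. Of 30 further lipid-associated macrophage genes, those at least 2-fold higher outside the Kupffer-like clusters than in them were 5 of 29 measured in high-AFP, 6 of 30 in low-AFP and 5 of 29 in control, with list medians of 0.23, 0.24 and 0.13 on the log2 scale, against -0.07, -0.08 and -0.15 over all genes. Spp1, which encodes osteopontin, was at 234, 144 and 126 CPM outside the Kupffer-like clusters of high-AFP, low-AFP and control, against 48.2, 30.2 and 35.0 CPM in Kupffer-like cells. Itgax, which encodes CD11c, was at 190, 186 and 133 CPM, against 53.6, 63.0 and 27.5 CPM. In control 6 genes of the list were lower (6.21% of all genes measured there), among them Colec12, a scavenger receptor, at 6.47 CPM against 50.8 CPM.

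Outside the Kupffer-like clusters, 9 of 29 genes of that list were at least 2-fold higher in HCC than control, 3 of 29 in high-AFP than control and 2 of 30 in low-AFP than control, with medians of 0.69, 0.35 and 0.29, against -0.09, -0.09 and -0.04 over all genes. The fatty acid carrier gene Fabp5 was at 1001, 563, 392 and 108 CPM in HCC, high-AFP, low-AFP and control, and its relative Fabp4 at 148, 55.4, 65.4 and 11.3 CPM. Lgals3, which encodes galectin-3, was at 2711, 1838, 1646 and 867 CPM.

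The partners of single members were also read. Of 17 other proton pump subunits, 0 of 17, 16 and 16 measured were 2-fold higher or lower outside the Kupffer-like clusters in HCC, high-AFP and low-AFP against control, and 0 of 16 between the macrophage kinds in each of high-AFP, low-AFP and control, where Atp6v0d2 differed by log2 folds of 1.08 to 1.38 with cluster p10 and -0.57 to -0.13 without it. Of 20 Trem2 and Tyrobp signalling genes, 0 of 15, 16 and 16 measured were higher in HCC, high-AFP and low-AFP than control, and Clec5a, another Tyrobp-coupled receptor, was lower in HCC and high-AFP than control, at 9.16, 18.7, 32.5 and 58.2 CPM (3.96% and 0.734% of all genes were called lower in these comparisons). It was higher outside the Kupffer-like clusters than in them in high-AFP and control, where Kupffer-like cells held 4.27 and 8.93 CPM. Among the other tetraspanins, Tspan4 was higher in HCC than control, at 106 against 37.2 CPM, and Tspan15, at 36.0, 61.2 and 67.9 CPM outside the Kupffer-like clusters of high-AFP, low-AFP and control, was lower there than the 120, 157 and 151 CPM of Kupffer-like cells (1.58% and 2.2% of all genes were called lower in high-AFP and low-AFP). The MS4A genes split between the kinds: Ms4a4c was at 135, 215 and 144 CPM outside the Kupffer-like clusters, against 48.4, 53.4 and 32.3 CPM in Kupffer-like cells, and Ms4a8a at 18.9, 13.01 and 25.9 CPM, against 67.2, 75.0 and 96.8 CPM. Of the 4 MiT/TFE factors, 0 differed by 2-fold between libraries outside the Kupffer-like clusters, and Tfec was lower outside these clusters than in Kupffer-like cells of low-AFP and control, at 34.1 and 38.8 CPM against 82.4 and 103 CPM, with a log2 fold of -0.90 in high-AFP, under the threshold. Among 12 lipoprotein lipase partners, 4 of 7 measured were lower in HCC than control (3.96% of all genes were called lower). They were led by Apoc3 at 41.2 against 437 CPM, a hepatocyte transcript that moved with the hepatocyte list above. Against classical monocyte-like cells, 7.54%, 4.85%, 5.86% and 8.53% of all genes were higher outside the Kupffer-like clusters in HCC, high-AFP, low-AFP and control. Of measured pump subunits 1 of 17, 2 of 16, 2 of 16 and 1 of 16 were, Atp6v0a1 in each library and Atp6v1a in high-AFP and low-AFP. The counts of 1 in HCC and control were not above the shares over all genes. In this comparison Tfec was higher outside the Kupffer-like clusters in each library, at 56.8, 43.2, 34.1 and 38.8 CPM against 19.1, 11.9, 10.5 and 5.27 CPM, the last from 3 UMIs. Of the other tetraspanins 4 of 12, 3 of 13, 3 of 13 and 4 of 12 were higher, among them Cd81, Tspan15 and Tspan4 in each library.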

How the data were processed

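RNA of single liver cells was measured in 4 libraries made with a 10x Genomics 3' kit, per the labels. The authors deposited raw UMI counts, whole numbers for each gene in each barcode. The submitters' processing notes list Cell Ranger, R 3.0 and Seurat 3, with mm9 as build, and Cell Ranger was at 3.0.2 per the file headers. Coordinates printed here come from RefSeq and GRCm38, not from the files.

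Barcodes were kept from 300 genes and 500 UMIs upward, with a mitochondrial share of up to 30%. The mitochondrial limit removed 8.19%, 26.5%, 42.0% and 42.7% of barcodes in HCC, high-AFP, low-AFP and control. Scrublet (scanpy 1.11.5) marked under 0.5% of barcodes automatically, so the 513, 575, 230 and 323 highest scores were removed, at 0.8% per 1000 barcodes. Cells were clustered without the 8 genes (2000 variable genes, 30 components, 15 neighbours, leidenalg 0.10.2, resolution 1, libraries not integrated), phagocytes once more, and named from 22 marker lists with at least 3 markers. Phagocyte subclusters led by lists of other cells stayed unnamed.

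UMIs were summed per type and library. Types under 50 cells entered no fold or count of higher genes by themselves. Levels of some such types are printed with their cell numbers. Intervals are exact Poisson or Clopper-Pearson. The fold rule was tested on simulated counts. Genes of the 10 lists were named as those with the largest folds at 10 CPM or more, not all of which are printed, and clusters by leading genes. The members and lists were chosen with earlier results of these data known.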

Additional observations from a re-analysis of the deposited data

Results flagged for a closer look

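Trem2 and Gpnmb were also present in phagocyte clusters that stayed unnamed and entered no comparison. Listed are only values from at least 20 cells whose interval lay above that of control in the same cluster. Values that did not pass this rule are left out. In p12, with T cell genes (Bcl11b, Cd28) beside C3ar1 and Cx3cr1, Trem2 was at 267 CPM in high-AFP and 250 CPM in low-AFP, against 134 CPM (98.6 to 179) in control. Gpnmb there was at 94.2 CPM in HCC, 69.4 in high-AFP and 147 in low-AFP, against 14.3 CPM (4.64 to 33.3) in control. In p16, led by cell cycle genes (Pclaf, Tk1) with Pf4 and C1qc, Trem2 was at 385 CPM in high-AFP (76 cells), against 224 CPM (139 to 342) in 7 control cells. In p22, led by B cell genes, Trem2 was at 444 CPM and Gpnmb at 183 CPM in high-AFP (25 cells), against 86.0 and 0 CPM in 5 control cells. Whether p12 and p22 are doublets that the score missed was not tested.

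Some log2 folds ran in opposite directions in macrophage-like and monocyte-like cells with intervals that did not overlap in either; the difference between the types was not tested. Lpl in HCC against control was 0.25 in macrophage-like and -1.84 in monocyte-like cells, and in HCC against high-AFP 0.46 and -0.47. In low-AFP against control, Lpl was 0.31 and -0.98, Gpnmb 1.52 and -0.74, Cd9 0.58 and -0.72, and Cd63 1.22 and -1.35. Cd9 in high-AFP against low-AFP was -0.28 in macrophage-like and 0.38 in monocyte-like cells.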

How the results depend on the processing

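Of 108 log2 folds past 2-fold, 1271 of 1281 alternatives kept the sign and 1170 kept the 2-fold size. These alternatives include dropping the 10 CPM minimum, which leaves every fold unchanged by design. Apart from the Clec4f split, shares over all genes were not computed for the alternative settings below. Without cluster p10 (chosen after seeing the data), counts of higher genes were 2 in HCC against control and 0 in HCC against high-AFP for macrophage-like cells; outside the Kupffer-like clusters they were 1, 0, 1 and 0 in HCC against control, HCC against high-AFP, high-AFP against control and low-AFP against control; against classical monocyte-like cells 4 in HCC; and against Kupffer-like cells 3 in high-AFP and 2 in low-AFP. The log2 folds that reversed without it were Gpnmb in HCC against high-AFP (-0.73) and against classical monocyte-like cells in HCC (-0.10), and Atp6v0d2 against Kupffer-like cells in high-AFP (-0.16), low-AFP (-0.57) and control (-0.13).

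Outside against inside the Kupffer-like clusters, counts in high-AFP were 1 with a mitochondrial limit of 15%, 1 with at least 1000 UMIs and 0 at resolution 0.5, and in low-AFP 1 with at least 1000 UMIs, 0 at resolution 0.5 and 1 by the Clec4f split (chosen after seeing the data); Kupffer-like cells of high-AFP numbered 62, 130 and 210 under the first 3, instead of 576. Atp6v0d2 reversed there in high-AFP (-0.13 at resolution 0.5) and low-AFP (-0.98 with 1000 UMIs, -0.76 at resolution 0.5), and Cd9 in low-AFP (-0.14 and -0.13). In Kupffer-like cells against control the count was 6 in high-AFP and 5 in low-AFP with 1000 UMIs, 5 in both at resolution 0.5, 5 in high-AFP by mean over cells, and 1 in low-AFP with members kept. For macrophage-like cells, HCC against control gave 7 by mean over cells. HCC against high-AFP gave 1 with the 15% limit, without doublet removal, with 1000 UMIs, at resolutions 0.5 and 2, and by mean over cells. Outside the Kupffer-like clusters, HCC against high-AFP gave 0 at resolution 2 and by mean over cells, high-AFP against control 1 with members kept, at resolution 0.5 and by mean over cells, and low-AFP against control 1 with members kept and 0 at resolution 0.5. In monocyte-like cells HCC against control gave 0 with the 15% limit, 1000 UMIs and resolutions 0.5 and 2, high-AFP against low-AFP 0 with the 15% limit, 1000 UMIs and resolution 0.5 and 3 without doublet removal, and low-AFP against control 1 with the 15% limit. Of 2 more settings chosen after seeing the data, leaving out cluster p14 gave 0 in HCC against control and 2 in high-AFP against low-AFP, and Kupffer-like cluster p1 alone gave 2 in high-AFP and 2 in low-AFP against control. The cause was not tested. Adding 1 CPM, median-of-ratios scaling, and leaving out shallow clusters moved no count of members by over 1.5 times. Dropping the 10 CPM minimum could not change these counts, because a 2-fold rise after adding 10 CPM already needs at least 10 CPM. With the 15% limit low-AFP had 43 Kupffer-like cells, too few for a value.

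Shares of cells moved with depth. The median share over the 8 genes in macrophage-like cells was 31.2%, 29.2%, 29.6% and 12.4% at 1000 UMIs in HCC, high-AFP, low-AFP and control, 43.4%, 47.8%, 46.4% and 24.8% at 2000 UMIs, and 53.7%, 67.4%, 66.2% and 29.6% unthinned; it was 17.8% in control with the 15% limit and 25.6% in low-AFP without p10. No paired analysis was possible because each group was 1 library and the labels give no replicate numbers.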
